A study of Mus musculus with 21 samples.

Results

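The genes described here are 29 transcripts of cholesterol biology, chosen by name from the 24263 gene symbols of a mouse RNA sequencing count table. They comprise 7 enzymes that build farnesyl diphosphate from acetyl-CoA through mevalonate, 3 that turn it into lanosterol, 8 that turn lanosterol into cholesterol, 5 regulators of the pathway, 2 genes of sterol transport and uptake, and 4 of efflux and storage. All 29 had enough counts to be tested in every comparison. RNA was measured in 21 libraries, 3 for each of 7 groups, from 2 mouse cell lines exposed for 24 h. Acrylamide (ACR), a neurotoxic vinyl monomer, was used at 1 mM, and phosphate-buffered saline (PBS) was its vehicle.

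The first line, 1C11NE, is the 1C11 cell line of strain 129 after 12 days of differentiation toward noradrenergic neurons with dibutyryl cAMP, dimethyl sulfoxide and a cyclohexanecarboxylic acid. Its 5 groups were vehicle alone (PBS), acrylamide (ACR), conditioned medium of BV2 cells given vehicle (PBS-CM), the same with acrylamide added (PBS-CM+ACR), and conditioned medium of BV2 cells given acrylamide (ACR-CM). The second line, BV2, is a microglial line labelled C57BL/6, given vehicle (BV2_PBS) or acrylamide (BV2_ACR). The growth media were DMEM for 1C11 and DMEM/F12 for BV2, each with 10% serum. The labels do not give the medium or serum used during the exposures, nor whether any acrylamide remained in the ACR-CM medium, so conditioning and base medium cannot be told apart in comparisons with PBS. No label says that replicates were separate cultures, so the p-values refer to the spread between these libraries and part or all of it may be technical.

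Cholesterol is made from acetyl-CoA by a chain of enzymes, most of them in the endoplasmic reticulum. Their genes are switched on together by the transcription factor SREBP2, made from Srebf2, which the escort protein SCAP carries to the Golgi for cleavage when membrane sterol is low and which INSIG proteins hold back when sterol is high. When sterols accumulate, liver X receptors, one of them made from Nr1h2, switch on the efflux pumps ABCA1 and ABCG1. Neurons and glia make most of the brain's cholesterol locally, and microglia that have taken up myelin or dead cells export or esterify the surplus.

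Library totals ran from 2762287 to 7391991 counts. Levels below are CPM, counts relative to the library total after TMM scaling (trimmed mean of M-values) within each line, and a gene was called changed when edgeR's quasi-likelihood test gave a Benjamini-Hochberg adjusted p below 0.05 over all genes tested. In a principal component analysis of 1C11NE, component 1 (43.1% of variance) separated 7 of the 9 conditioned-medium libraries, at 14.0 to 41.1, from the libraries without such medium. PBS-CM+ACR replicate 3 (-17.4) and PBS-CM replicate 1 (-27.2) stood apart from their groups and beside the latter. Results that rest on those groups are given with and without these 2 libraries. They were picked from these same data by their place on component 1, so fits without them are no independent check. Positions on component 1 also went with transcript GC content, as described below. In the 1C11NE libraries, the 12 neuronal markers in the table summed to 11.4 to 20.6 CPM, against 33.0 to 60.9 CPM in BV2. In all PBS libraries 4 of 12 were at 0 (Elavl4, Nefh, Nefl and Rbfox3). In BV2_PBS it was 8 of 12 (Dcx, Gap43, Map2, Nefl, Rbfox3, Snap25, Stmn2 and Tubb3), so the BV2 sum came from few markers. Of 4 neuronal markers tested between these vehicle groups, 2 were called higher and 2 lower in BV2, with 79.2% of all genes called. The 5 noradrenergic markers in the table summed to 18.4 to 38.9 CPM in 1C11NE and to 31.3 to 51.8 CPM in BV2. Neither sum was thus higher in 1C11NE, but a sum does not show how single markers differ. The defining genes Th and Dbh were not analysed here. The 17 microglial markers in the table summed to 4962 to 6212 CPM in BV2.

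The promoters of these genes are shown first, since SREBP2 is known to act on many of them. RefSeq promoters (mouse build GRCm38.p6) were matched for 24 of the 29 genes, in 32 windows of the 250 bases before a start site. The genes with no entry were Stard4, Abcg1, Fdps, Fdft1 and Sqle. CCAAT, the box bound by NF-Y, a partner of SREBP, was sought on both strands, as were the sterol regulatory element TCACNCCAC and the E-box CACGTG. The CCAAT box was in 65.6% of the members' windows (21 of 32, in 20 genes) and in 33.8% of all 32851 windows of the same length. CACGTG was in 18.8% of the members' windows and in 6.02% of all windows. TCACNCCAC was in 1 member window, that of Hmgcs1, against 1.05% of all windows. No CCAAT was in the windows of Acat2 or Abca1. Windows of one gene can overlap, and a match is only a match of letters. The 6 windows below belong to Hmgcs1, which holds the sterol element, and to genes that changed in at least 1 comparison of treatments. Capitals mark CCAAT, its reverse complement ATTGG, and in Hmgcs1 also the sterol element at 137 to 129 bases before the start.
Hmgcs1 (chr13:119690101-119690350, plus strand): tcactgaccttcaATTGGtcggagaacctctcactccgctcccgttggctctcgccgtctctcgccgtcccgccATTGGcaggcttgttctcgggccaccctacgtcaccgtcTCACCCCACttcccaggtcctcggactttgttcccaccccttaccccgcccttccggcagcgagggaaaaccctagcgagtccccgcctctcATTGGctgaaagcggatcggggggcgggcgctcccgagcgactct
Mvd (chr8:122443423-122443672, minus strand): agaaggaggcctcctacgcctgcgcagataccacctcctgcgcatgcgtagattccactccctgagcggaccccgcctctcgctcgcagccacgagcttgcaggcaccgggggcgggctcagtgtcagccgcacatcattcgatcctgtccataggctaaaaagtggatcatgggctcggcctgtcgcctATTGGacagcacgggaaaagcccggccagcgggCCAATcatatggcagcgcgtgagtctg
Idi1 (chr13:8885356-8885605, plus strand): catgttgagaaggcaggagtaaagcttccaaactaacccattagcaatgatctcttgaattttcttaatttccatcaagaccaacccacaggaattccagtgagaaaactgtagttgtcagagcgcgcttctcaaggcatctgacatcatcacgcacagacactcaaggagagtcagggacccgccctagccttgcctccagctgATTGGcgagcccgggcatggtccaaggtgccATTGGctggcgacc
Cyp51 (chr5:4104698-4104947, minus strand): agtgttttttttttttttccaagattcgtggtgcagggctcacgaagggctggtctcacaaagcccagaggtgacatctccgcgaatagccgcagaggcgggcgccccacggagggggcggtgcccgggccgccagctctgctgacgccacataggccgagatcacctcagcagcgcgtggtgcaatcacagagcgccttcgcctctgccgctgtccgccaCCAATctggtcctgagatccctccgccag
Msmo1 (chr8:64733579-64733828, minus strand): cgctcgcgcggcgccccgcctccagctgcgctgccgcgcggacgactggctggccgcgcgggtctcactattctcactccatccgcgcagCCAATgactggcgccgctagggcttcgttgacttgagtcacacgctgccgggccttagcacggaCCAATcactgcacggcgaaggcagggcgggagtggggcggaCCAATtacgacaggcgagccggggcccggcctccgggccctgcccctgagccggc
Insig1 (chr5:28071162-28071411, plus strand): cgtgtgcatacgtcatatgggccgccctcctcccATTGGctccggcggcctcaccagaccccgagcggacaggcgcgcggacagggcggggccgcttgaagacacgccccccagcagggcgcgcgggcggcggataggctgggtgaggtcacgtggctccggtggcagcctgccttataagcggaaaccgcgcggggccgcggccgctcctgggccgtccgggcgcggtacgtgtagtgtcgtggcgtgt
Msmo1 and Hmgcs1 each held 3 boxes, Mvd and Idi1 held 2, and Cyp51 and Insig1 held 1.

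Direct exposure to acrylamide raised 3 synthesis enzymes in 1C11NE cells. They were Mvd, Cyp51 and Acat2, which rose 1.81- to 2.15-fold. No member fell. Among all 12550 genes tested, 1.18% were called, 0.462% higher and 0.717% lower, against 3 of 29 members. The median log2 change was 0.43 over the members and -0.00 over all genes, and 24 of 29 members had a positive log2 change. The summed level of the 18 synthesis enzymes was 642, 638 and 629.7 CPM in the PBS libraries and 859, 896 and 961 CPM in the ACR libraries. The ranges did not overlap, and the sums were not tested.

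In the mevalonate segment, Mvd encodes the decarboxylase that makes isopentenyl diphosphate. It stood at 10.0, 12.4 and 11.2 CPM in PBS and 21.9, 22.7 and 27.8 CPM in ACR, so that every acrylamide library was above every vehicle library. The increase was 2.15-fold (log2 1.11 ± 0.20, n = 3 per group, edgeR's quasi-likelihood test, adjusted p = 0.0076). Acat2, the thiolase of the first step, stood at 37.9, 32.7 and 38.5 CPM in PBS and 64.2, 61.8 and 71.7 CPM in ACR, again with no overlap. Its log2 change was 0.86 ± 0.16 (edgeR adjusted p = 0.011). Of the other 5 enzymes of this segment none passed. The isomerase Idi1 averaged 14.5 ± 1.48 and 23.7 ± 1.59 CPM, and farnesyl diphosphate synthase Fdps 90.1 ± 8.79 and 143 ± 23.5 CPM (edgeR adjusted p = 0.099 and 0.15). Neither pair of groups overlapped. Phosphomevalonate kinase Pmvk had a log2 change of 0.82 ± 0.25 and HMG-CoA synthase Hmgcs1 one of 0.46 ± 0.22, while mevalonate kinase Mvk was at -0.03.

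In the sterol segment, Cyp51, the demethylase that acts on lanosterol, stood at 24.2, 20.97 and 28.2 CPM in PBS and 47.7, 47.2 and 45.5 CPM in ACR. The libraries of each group lay close together and the groups were far apart. Its increase was 1.92-fold (log2 0.94 ± 0.17, edgeR adjusted p = 0.0089). Msmo1, the oxygenase that removes methyl groups after Cyp51 has acted, averaged 21.4 ± 3.89 and 34.9 ± 1.45 CPM with no overlap, and missed the threshold (edgeR adjusted p = 0.064). The remaining 6 enzymes of this segment had log2 changes between -0.19 (the dehydrogenase Nsdhl) and 0.51 (the desaturase Sc5d), and the 3 enzymes from farnesyl diphosphate to lanosterol had 0.35 (squalene synthase Fdft1), -0.03 (squalene epoxidase Sqle) and 0.75 (lanosterol synthase Lss).

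The rest of the system did not pass the threshold under acrylamide. Insig1, an anchor of the SREBP complex and itself a known SREBP target, had a log2 change of 0.33 ± 0.14, and the sterol carrier Stard4 one of 0.47 ± 0.15. Srebf2 had -0.53 ± 0.30, Srebf1 0.43 ± 0.28 and Scap 0.24 ± 0.34. The efflux pump Abcg1 was at 9.26, 8.04 and 6.41 CPM in PBS and 16.9, 12.2 and 15.8 CPM in ACR. These groups did not overlap, and its log2 change of 0.90 ± 0.31 had an edgeR adjusted p of 0.22. In all, 14 members had an unadjusted p under 0.05, none of them lower in ACR. The share of all genes at that unadjusted threshold is not given here, so the count alone is no result about the members.

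Each of these 3 calls was lost when some single library was left out, Acat2 without PBS replicate 2 or ACR replicate 3, Mvd without PBS replicate 1 and Cyp51 without PBS replicate 2 (edgeR adjusted p 0.054 to 0.079 where lost). Leaving the 2 libraries that stood apart out of the shared fit, neither of which is in the groups compared, gave 9 members higher (4.34% of all genes called), the further ones being Pmvk, Idi1, Fdps, Msmo1, Stard4 and Abcg1.

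**Figure D1:**
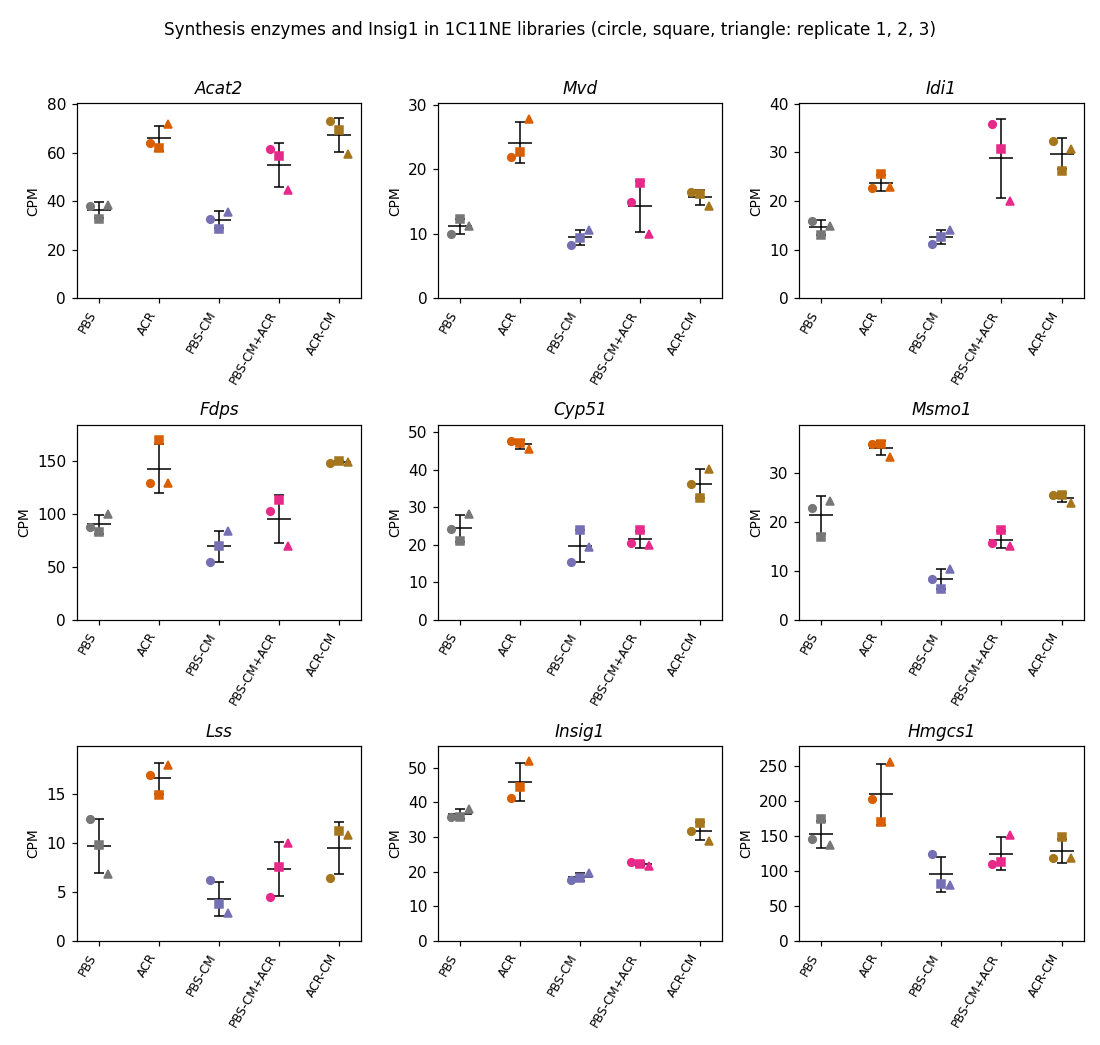
CPM (y axis, from 0) of 9 genes in the 5 groups of 1C11NE libraries (x axis). Symbols are single libraries, the horizontal dash is the mean and the bar the SD of 3 libraries; Mvd, Acat2 and Cyp51 are higher in every ACR library than in every PBS library, and Msmo1 and Insig1 are lowest in PBS-CM.

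Medium conditioned by vehicle-treated BV2 cells went with lower levels of several members. Against PBS, 5 members fell in PBS-CM (Msmo1, Insig1, Srebf2, Lss and Hsd17b7) and 1 rose (Pmvk), with 4.55% of all genes called (2.49% higher and 2.06% lower). The median log2 change was -0.24 over the members and -0.00 over all genes. The summed level of the 18 enzymes was 499.6, 519 and 559 CPM in PBS-CM, below all 3 PBS libraries.

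Msmo1 stood at 22.9, 16.9 and 24.3 CPM in PBS and 8.32, 6.31 and 10.4 CPM in PBS-CM. The fall was 2.56-fold (log2 -1.35 ± 0.20, edgeR adjusted p = 0.00099). Insig1 stood at 35.7, 35.9 and 38.2 CPM in PBS and 17.5, 18.1 and 19.6 CPM in PBS-CM, a 1.99-fold fall with little spread within either group (log2 -0.99 ± 0.15, edgeR adjusted p = 0.0011). The calls of Msmo1 and Insig1 held when any single library of the 2 groups was left out. In Hsd17b7, a ketosteroid reductase that works in the same demethylation steps, the values were 86.2, 89.8 and 71.9 CPM in PBS and 62.1, 54.9 and 50.3 CPM in PBS-CM (log2 -0.57 ± 0.15, edgeR adjusted p = 0.042). Lss, which closes the sterol ring, was scarce, at 12.4, 9.77 and 6.87 CPM in PBS and 6.18, 3.75 and 2.81 CPM in PBS-CM (log2 -1.21 ± 0.33, edgeR adjusted p = 0.046). None of these pairs of groups overlapped. Dhcr7, the reductase of a last step, missed the threshold with a log2 change of -1.32 ± 0.38 (edgeR adjusted p = 0.054), as did Hmgcs1 with -0.68 ± 0.22 (edgeR adjusted p = 0.079). Pmvk was the only called member that rose, at 23.3, 14.8 and 18.8 CPM in PBS and 24.9, 42.1 and 39.1 CPM in PBS-CM (log2 0.90 ± 0.25, edgeR adjusted p = 0.046). With it, 3 of the 18 enzymes had a positive log2 change.

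Among the regulators, Srebf2, which encodes the main activator of the pathway, stood at 1302, 1782 and 1172 CPM in PBS and 901, 539 and 458 CPM in PBS-CM. Every PBS-CM library was below every PBS library, with PBS-CM replicate 1 nearest to PBS. The fall was 2.24-fold (log2 -1.17 ± 0.30, edgeR adjusted p = 0.037). Scap stood at 57.5, 57.2 and 44.4 CPM in PBS and 39.7, 13.6 and 20.4 CPM in PBS-CM, and Srebf1, which encodes the related factor of fatty acid synthesis, at 104, 123 and 93.7 and 91.5, 48.8 and 45.5 CPM. Neither passed (edgeR adjusted p = 0.075 and 0.11), though neither pair of groups overlapped. Insig2, the second anchor, had a log2 change of 0.31 ± 0.18. The efflux and storage genes Nr1h2, Abca1, Abcg1 and Soat1 had log2 changes between -0.04 and 0.77, and 0 of 4 passed edgeR's test at the adjusted or the unadjusted threshold. With the correction described next, Abcg1 was called higher (log2 0.83, edgeR adjusted p = 0.032) and Abca1 had an unadjusted p under 0.05.

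The libraries differed in how their counts followed transcript GC content. For each library, the deviation of genes from their mean in the line was regressed on transcript GC content and log2 transcript length together. In 1C11NE this used the 11968 of 12550 tested genes with a matched transcript. The length slope ran from 0.22 log2 units per doubling in PBS replicate 2 to -0.23 in PBS-CM replicate 3. The GC slope ran from -0.02 to 0.34 log2 units per 10 GC points in PBS and ACR. The GC slope ran from -0.33 to -0.08 in 7 of the conditioned-medium libraries, but was 0.25 in PBS-CM replicate 1 and 0.24 in replicate 3 of PBS-CM+ACR. Within each 1C11NE group, libraries with a higher GC slope lay lower on component 1. In ACR, for example, replicate 3 was at -41.8 (slope 0.32) and replicate 2 at -5.94 (slope -0.02). The parts of medium and of GC slope in component 1 were not tested. Srebf2, Scap and Srebf1 have GC-rich transcripts (57.9, 59.1 and 58.4% GC), and their levels in those 2 libraries were above the rest of their groups, at 901 and 697 CPM for Srebf2, 39.7 and 49.2 CPM for Scap, and 91.5 and 91.5 CPM for Srebf1. Within PBS, Srebf2 rose with the slope, with 1172, 1302 and 1782 CPM at slopes of 0.10, 0.16 and 0.34. It also did so within PBS-CM, with 458, 539 and 901 CPM at slopes of -0.25, -0.17 and 0.25. Within ACR, Srebf2 did not follow the slope, with 886 CPM in replicate 3 (slope 0.32) and 883 CPM in replicate 2 (-0.02). The highest ACR level, 1179 CPM, was in replicate 1 (0.15). In PBS-CM+ACR and ACR-CM the order of the levels was not that of the slopes. The part of the slope in the Srebf2 levels was not tested. With a correction for GC content and transcript length, added after the data were seen, the log2 change in PBS-CM was -0.78 for Srebf2, -0.80 for Scap and -0.46 for Srebf1, and all 3 were called by edgeR, as was Dhcr7 (-1.27). Under the same correction, Lss (-0.95) and Pmvk (0.68) were no longer called. The summed level of the enzymes in those 2 libraries, 499.6 and 600.2 CPM, was the lowest of their groups.

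Without the 2 libraries that stood apart, 2 members were higher and 9 lower in PBS-CM, but 35.1% of all genes were then called. The additional ones were Hmgcs1, Dhcr7, Srebf1 and Scap, which were lower, and the sterol isomerase Ebp, which was higher. The log2 change of Srebf2 was then -1.51, that of Scap -1.65 and that of Lss -1.57. The libraries left out were picked from these data and are the conditioned-medium libraries with positive GC slopes. Without them, medium and GC slope cannot be told apart, and this fit is no independent check. The calls of Pmvk and Srebf2 were lost without any 1 PBS library, without PBS-CM replicate 2 or without PBS-CM replicate 3, and those of Lss and Hsd17b7 without replicate 2 or 3 of PBS-CM or replicate 1 or 2 of PBS (edgeR adjusted p 0.056 to 0.22 where lost). In bulk RNA, fewer cells with a transcript and less of it per cell cannot be told apart.

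**Figure D2:**
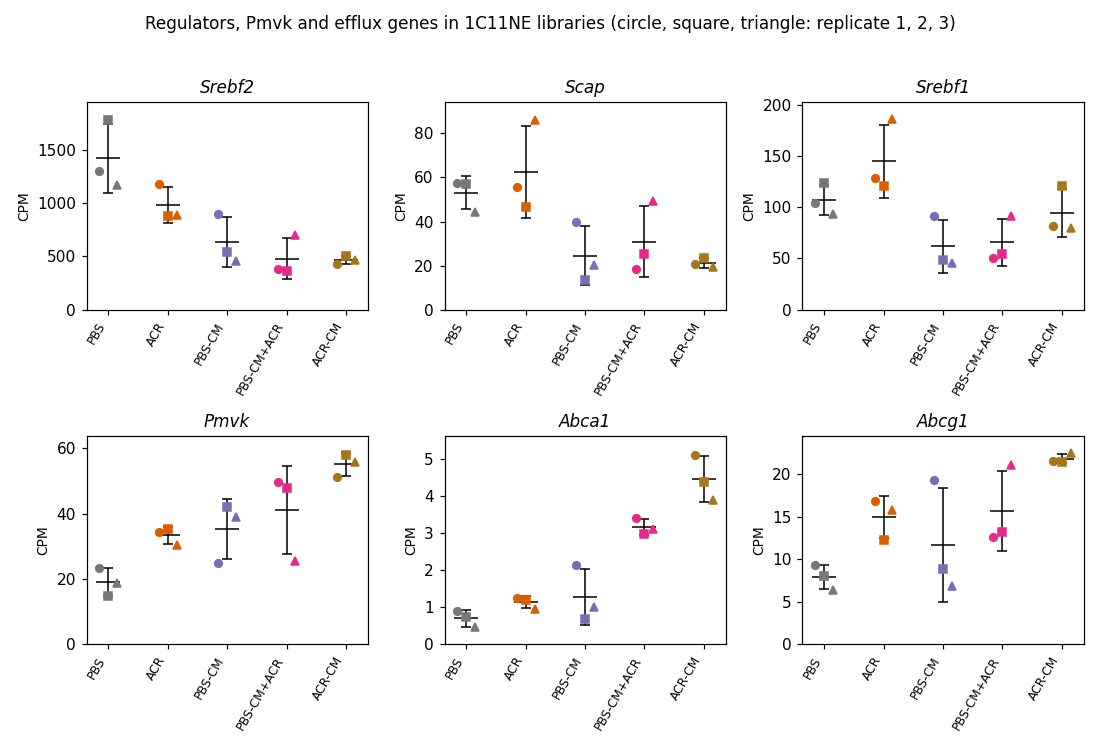
CPM (y axis, from 0) of 3 regulators, Pmvk and the 2 efflux pumps in the 5 groups of 1C11NE libraries (x axis), with symbols for single libraries, a dash for the mean and a bar for the SD. In Srebf2, Scap and Srebf1 the circle of PBS-CM and the triangle of PBS-CM+ACR lie above the rest of their groups, while Abca1 is above every PBS-CM library in every PBS-CM+ACR and ACR-CM library.

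**Figure D3:**
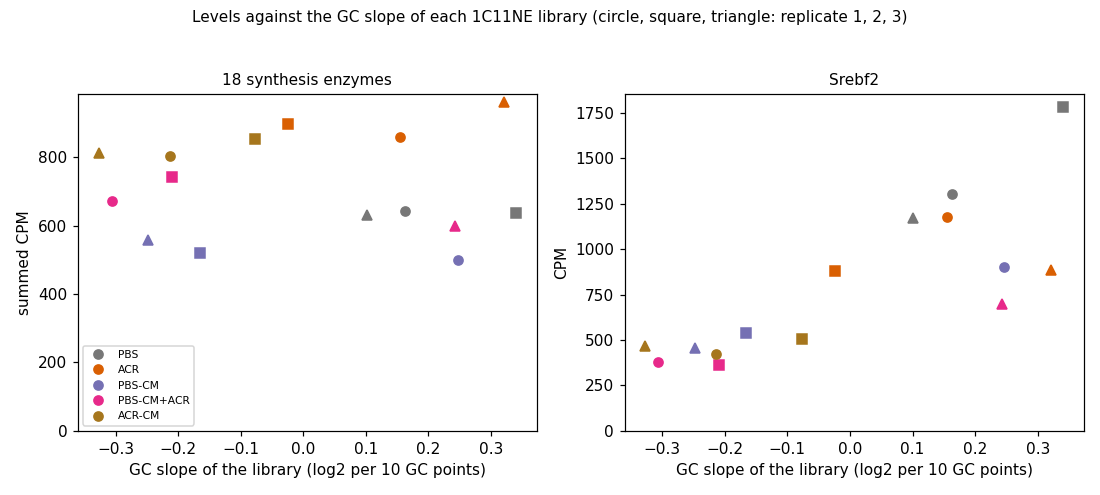
Summed CPM of the 18 synthesis enzymes (left) and CPM of Srebf2 (right) against the GC slope of each of the 15 1C11NE libraries (x axis, log2 per 10 GC points). Srebf2 is at 539 CPM or less in the 7 conditioned-medium libraries with negative slopes, at 697 and 901 CPM in the 2 with positive slopes, and at 883 CPM or more in PBS and ACR; the 2 conditioned-medium libraries with positive slopes have the lowest enzyme sums of their groups.

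Acrylamide added to the conditioned medium raised Idi1 and Msmo1. Between PBS-CM+ACR and PBS-CM, 2 of 29 members rose and 0 fell, with 0.375% of all genes called (0.175% higher and 0.199% lower), and 23 members had a positive log2 change. The median was 0.21 over the members and -0.02 over all genes. Idi1, which isomerises the building block that Mvd makes, stood at 11.1, 12.6 and 14.0 CPM in PBS-CM and 35.8, 30.6 and 19.9 CPM in PBS-CM+ACR. The groups did not overlap, with PBS-CM+ACR replicate 3 the lowest of its group (log2 1.19 ± 0.20, edgeR adjusted p = 0.013). Msmo1 stood at 8.32, 6.31 and 10.4 CPM in PBS-CM and 15.7, 18.3 and 14.9 CPM in PBS-CM+ACR, an increase just inside the threshold (log2 0.98 ± 0.21, edgeR adjusted p = 0.050). Acat2 averaged 32.3 ± 3.52 and 54.9 ± 9.08 CPM with no overlap and was just outside it (edgeR adjusted p = 0.059). Without the 2 libraries that stood apart, the called members were Idi1 and Acat2, and Msmo1 was no longer among them. Both were lost without replicate 1 or replicate 2 of PBS-CM+ACR, Idi1 also without PBS-CM replicate 2, and Msmo1 also without replicate 1 or replicate 2 of PBS-CM, at an edgeR adjusted p of 0.063 to 0.24 where lost.

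Medium from acrylamide-treated BV2 cells raised enzymes of both segments, Insig1 and Abca1. Against PBS-CM, 7 members rose in ACR-CM and 0 fell, with 0.924% of all genes called (0.446% higher and 0.478% lower). They were Acat2, Idi1 and Fdps of the mevalonate segment, Cyp51 and Msmo1 of the sterol segment, Insig1 and the efflux pump Abca1. The median log2 change was 0.45 over the members and -0.03 over all genes, and 26 of 29 changes were positive. The PBS-CM libraries also served the comparison with PBS-CM+ACR, so these comparisons are not independent of each other.

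Msmo1 rose 2.99-fold, from 8.32, 6.31 and 10.4 CPM in PBS-CM to 25.5, 25.4 and 23.8 CPM in ACR-CM (log2 1.58 ± 0.20, edgeR adjusted p = 0.00097). Every ACR-CM library was at more than 2 times the highest PBS-CM library, and the level reached was within the range of the PBS group or just above it. Idi1 stood at 32.3, 26.1 and 30.7 CPM in ACR-CM (log2 1.24 ± 0.20, edgeR adjusted p = 0.0050) and Acat2 at 72.9, 69.5 and 59.5 CPM, against 32.6, 28.6 and 35.7 CPM in PBS-CM (log2 1.06 ± 0.16, edgeR adjusted p = 0.0042). Fdps, which makes the farnesyl diphosphate used for sterols and for protein prenylation, stood at 54.6, 69.6 and 84.0 CPM in PBS-CM and 148, 150.4 and 149 CPM in ACR-CM. The ACR-CM libraries of Fdps were nearly equal and all above PBS-CM (log2 1.10 ± 0.21, edgeR adjusted p = 0.016). Cyp51 stood at 15.4, 23.9 and 19.4 CPM in PBS-CM and 36.3, 32.4 and 40.1 CPM in ACR-CM (log2 0.89 ± 0.18, edgeR adjusted p = 0.022). Insig1 stood at 31.7, 34.2 and 28.99 CPM in ACR-CM, against 17.5, 18.1 and 19.6 CPM in PBS-CM, with no overlap (log2 0.78 ± 0.15, edgeR adjusted p = 0.016).

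Abca1, which loads cholesterol onto apolipoproteins outside the cell, was among the least abundant members in 1C11NE, so counting error is large. It was at 2.13, 0.682 and 1.00 CPM in PBS-CM and 5.13, 4.38 and 3.90 CPM in ACR-CM, from 10, 4 and 5 reads and 28, 20 and 21 reads. The groups did not overlap (log2 1.83 ± 0.39, edgeR adjusted p = 0.031). In PBS-CM+ACR it was at 3.41, 2.97 and 3.11 CPM, also above every PBS-CM library, and did not pass (edgeR adjusted p = 0.29). BV2 cells held 5.14 to 6.55 CPM of Abca1, and the summed microglial markers were 66.7 to 78.4 CPM in PBS-CM, 74.4 to 87.6 CPM in PBS-CM+ACR and 80.1 to 91.4 CPM in ACR-CM, against 49.5 to 59.2 CPM in PBS and 65.6 to 73.3 CPM in ACR. Of these 17 markers, Aif1, C1qa, C1qb, C1qc, Ptprc and Spi1 were at 0 in every 1C11NE group. Ctss, Fcer1g, Laptm5 and Tyrobp were at 0 in PBS and ACR but not in PBS-CM. Ctss was called higher in PBS-CM than in PBS (edgeR adjusted p = 0.033), with 15, 7 and 12 reads in the PBS-CM libraries. It had 5, 0 and 3 reads in ACR-CM, and the PBS-CM+ACR libraries held 2, 0 and 8. The part of these markers in the Abca1 result was not tested. The other pump, Abcg1, averaged 11.7 ± 6.76 CPM in PBS-CM and 21.9 ± 0.543 CPM in ACR-CM. PBS-CM replicate 1 was at 19.4 CPM and the other PBS-CM libraries at 8.87 and 6.82 CPM, and the difference did not pass (edgeR adjusted p = 0.19). With the GC and length correction on all libraries, Abcg1 was called higher in ACR-CM (log2 1.10, edgeR adjusted p = 0.0065). Mvd, Lss, Srebf1 and Stard4 were then also called higher, with 333 of 12550 genes called.

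Without the 2 libraries that stood apart, 11 members rose in ACR-CM and 1.36% of all genes were called. The additions were Lss (1.50), Srebf1 (1.00), Stard4 (0.65) and Abcg1 (1.47), all log2 changes. The calls of Msmo1, Idi1 and Acat2 held whichever library of the 2 groups was left out. That of Fdps was lost without PBS-CM replicate 2 or any 1 ACR-CM library, Cyp51 without PBS-CM replicate 1 or 3 or ACR-CM replicate 1 or 3, Insig1 without PBS-CM replicate 1 or 2 or ACR-CM replicate 1 or 2, and Abca1 without PBS-CM replicate 2 or 3 or any 1 ACR-CM library (edgeR adjusted p 0.050 to 0.17 where lost).

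When ACR-CM was compared with PBS-CM+ACR directly, asking whether it mattered that BV2 cells had met the acrylamide, no member passed. Of all genes, 0.0159% were called, all of them lower. By unadjusted p under 0.05, 6 members were higher in ACR-CM (Cyp51, Sqle, Fdps, Msmo1, Insig1 and Stard4), a count without the share of all genes at that threshold. DESeq2 also called 0 members. Cyp51 had the smallest p of the members and stood at 20.5, 24.0 and 19.9 CPM in PBS-CM+ACR and 36.3, 32.4 and 40.1 CPM in ACR-CM (log2 0.75 ± 0.18, edgeR adjusted p = 0.42). The groups did not overlap, but the number of members called in ACR-CM and in PBS-CM+ACR, each against PBS-CM, does not show that the 2 media differed.

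With acrylamide in both groups, the conditioned medium again went with lower levels of several members. PBS-CM+ACR had 4 members lower than ACR and 0 higher, with 3.96% of all genes called (1.95% higher and 2.01% lower), and the median was -0.46 over the members and -0.00 over all genes. Insig1 stood at 41.3, 44.6 and 51.9 CPM in ACR and 22.8, 22.2 and 21.8 CPM in PBS-CM+ACR, a 2.06-fold fall (log2 -1.04 ± 0.15, edgeR adjusted p = 0.00055). Cyp51 fell from 47.7, 47.2 and 45.5 CPM in ACR to 20.5, 24.0 and 19.9 CPM in PBS-CM+ACR (log2 -1.12 ± 0.18, edgeR adjusted p = 0.0019). Both genes had tight groups with a wide gap between them. Msmo1 fell from 35.8, 35.7 and 33.3 CPM in ACR to 15.7, 18.3 and 14.9 CPM (log2 -1.09 ± 0.19, edgeR adjusted p = 0.0033). Srebf1 stood at 128, 120.3 and 186 CPM in ACR and 50.8, 54.4 and 91.5 CPM in PBS-CM+ACR (log2 -1.14 ± 0.29, edgeR adjusted p = 0.037). The calls of Insig1, Cyp51 and Msmo1 held whichever library was left out, and that of Srebf1 was lost without ACR replicate 1 or 3 or PBS-CM+ACR replicate 1 or 2 (edgeR adjusted p 0.090 to 0.19 where lost). Without the 2 libraries that stood apart, 3 members were higher and 11 lower, with 24.6% of all genes called. Srebf2 was then at -1.40 and Scap at -1.49 on the log2 scale. With the GC and length correction on all libraries, 883 of 12550 genes were called. Srebf2, Scap, Lss, Hsd17b7 and Stard4 were then also called lower, and Abca1 higher (log2 1.63, edgeR adjusted p = 0.026). Abca1 was scarce, at 1.24, 1.20 and 0.944 CPM in ACR and 3.41, 2.97 and 3.11 CPM in PBS-CM+ACR, without overlap.

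Whether acrylamide acted differently in conditioned medium was tested by the interaction of both factors. No member and no gene in the table was called (0% of 12550 genes), also with DESeq2 for the members. Cyp51 was the single member with an unadjusted p under 0.05, with acrylamide changes of 0.94 in plain medium and 0.13 in conditioned medium (difference -0.81 ± 0.25 on the log2 scale, edgeR adjusted p = 1.00).

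**Figure D4:**
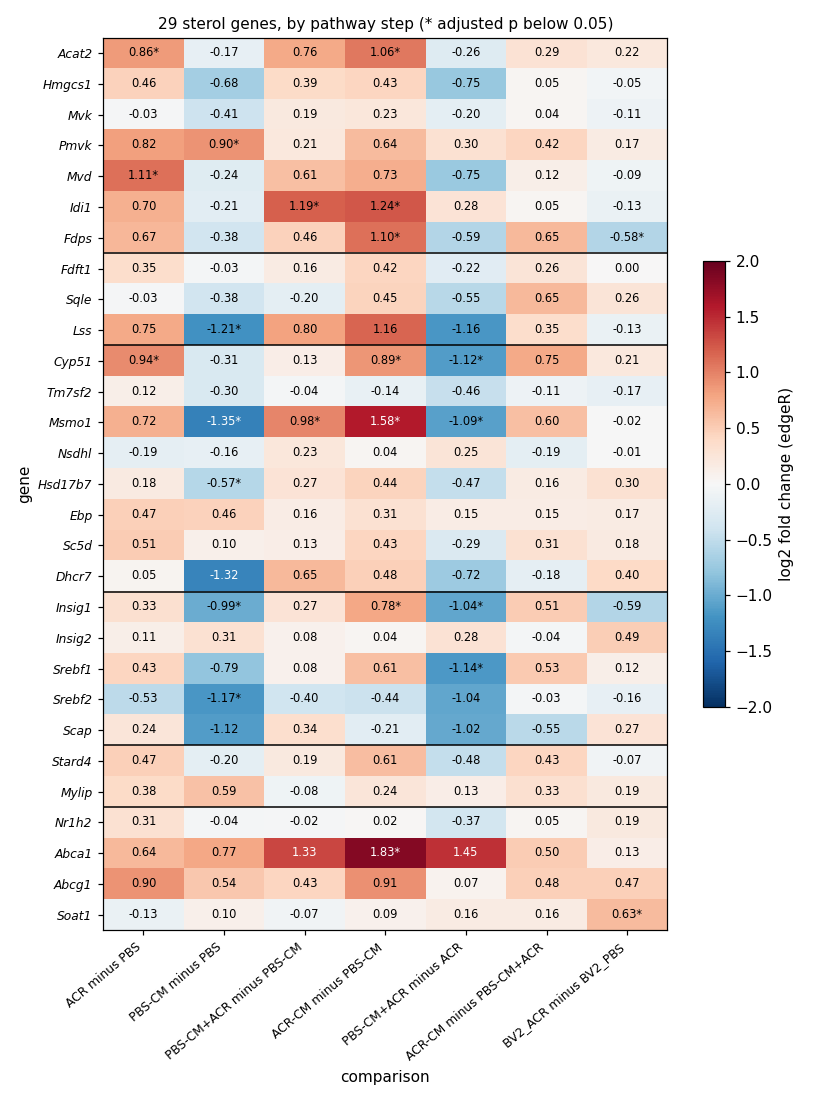
Log2 fold changes (colour and printed value) of the 29 genes (rows, ordered by pathway step) in 7 comparisons (columns). An asterisk marks an edgeR adjusted p below 0.05; Msmo1 and Insig1 are blue against PBS in PBS-CM and red against PBS-CM in ACR-CM, and the last column, for BV2 cells, holds 2 asterisks.

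In BV2 cells no synthesis enzyme passed the test in the upward direction with acrylamide. Of 29 members, Soat1 rose and Fdps fell, while 16.5% of all 10890 genes tested were called (7.17% higher and 9.33% lower), so the members were called less often than the table as a whole, a difference that was not tested. The median log2 change was 0.13 over the members and 0.03 over all genes. The summed level of the 18 enzymes was 768, 807 and 786 CPM in BV2_PBS and 700.0, 631 and 792 CPM in BV2_ACR, which overlapped.

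Soat1, the acyltransferase that turns cholesterol into storage esters, stood at 48.7, 55.6 and 56.1 CPM in BV2_PBS and 79.9, 75.6 and 92.7 CPM in BV2_ACR. All treated libraries were above all vehicle libraries (log2 0.63 ± 0.13, edgeR adjusted p = 0.0031). The call held whichever library was left out. Fdps stood at 285, 315 and 290.0 CPM in BV2_PBS and 213, 166 and 216 CPM in BV2_ACR, with no overlap (log2 -0.58 ± 0.13, edgeR adjusted p = 0.0051), and the call was lost without BV2_ACR replicate 2 (edgeR adjusted p = 0.055). Abcg1 averaged 28.0 ± 2.48 and 38.8 ± 5.49 CPM without overlap and was just outside the threshold (edgeR adjusted p = 0.051). Insig1 had a log2 change of -0.59 ± 0.22 and Insig2 one of 0.49 ± 0.18, neither of which passed (edgeR adjusted p = 0.074 and 0.073). With the GC and length correction, Insig1 was called lower (log2 -0.61, edgeR adjusted p = 0.046), with 1703 of 10890 genes called. Abcg1 was then further from the threshold (edgeR adjusted p = 0.19). The enzymes called in 1C11NE had log2 changes in BV2 of -0.09 for Mvd, 0.22 for Acat2 and 0.21 for Cyp51.

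The difference of the acrylamide response between the lines was tested in a joint fit of all 21 libraries. It was called for 1 member, Fdps, and for 0.567% of 13569 genes (0.339% higher and 0.228% lower). The response of Fdps in BV2 minus that in 1C11NE was -1.25 ± 0.27 on the log2 scale (edgeR adjusted p = 0.028). All 3 acrylamide libraries of Fdps were above the vehicle libraries in 1C11NE and below them in BV2. For Mvd the difference was -1.19 ± 0.28 and just outside the threshold (edgeR adjusted p = 0.053), and for Insig1 it was -0.92 ± 0.26 (edgeR adjusted p = 0.093). In all, 11 members had an unadjusted p under 0.05, a count without the share of all genes at that threshold. Of these only Soat1 had a difference above 0, at 0.76 ± 0.28. Without the 2 libraries that stood apart, neither of which is in the groups compared, 4 members were called, Fdps, Mvd, Idi1 and Insig1, all lower. In that fit 4.94% of all genes were called. The Fdps call was lost in 9 of the 12 fits that left out 1 library, those without PBS replicate 1 or 2, ACR replicate 2 or any BV2 library (edgeR adjusted p 0.052 to 0.099).

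**Figure D5:**
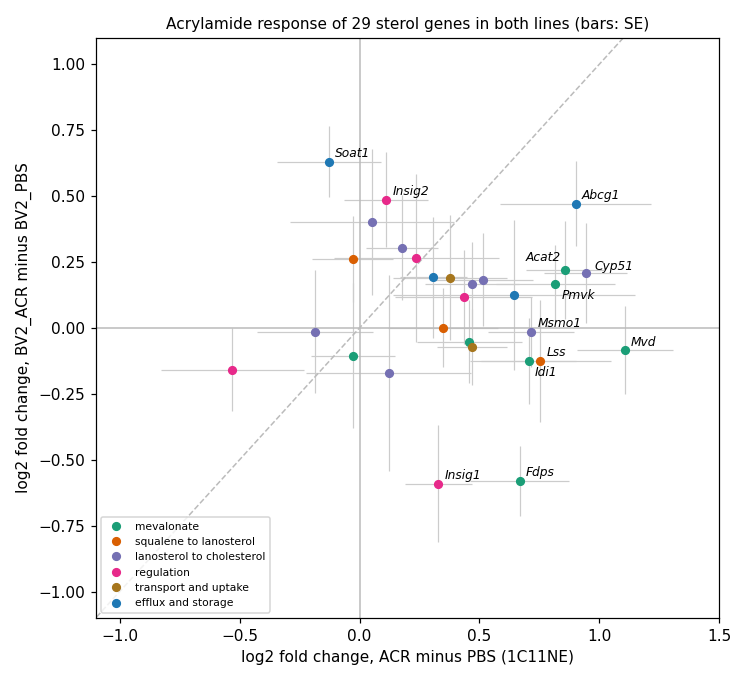
Log2 fold change with acrylamide in BV2 (y axis) against that in 1C11NE (x axis) for the 29 genes, coloured by pathway step, with SE bars and a dashed line of equal change. Mvd, Fdps, Idi1, Msmo1, Lss, Insig1 and Stard4 are among the genes right of 0 on the x axis and below 0 on the y axis. Fdps and Insig1 lie furthest below 0, and of these genes only Fdps was called in BV2. Soat1 lies on the opposite side.

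The lines were also compared under vehicle. Of the members, 24 of 29 differed between BV2_PBS and PBS, 14 higher and 10 lower in BV2, which is close to the 79.2% of all genes called (36.1% higher and 43.1% lower), so the count is no result about these genes. Line, strain, medium and differentiation differ together and cannot be told apart. The median log2 difference of all genes was -0.25, and levels in this comparison were scaled over both lines. Of the 5 regulators, 4 were lower in BV2. Srebf2 stood at 185, 156 and 247 CPM in BV2_PBS and 1165, 1610.5 and 1042 CPM in PBS (log2 -2.70 ± 0.29, edgeR adjusted p = 2.1e-08). Srebf1, Scap and Insig2 had log2 differences of -1.92, -2.37 and -1.14, and Insig1 was the regulator that did not pass, at -0.10. These sizes depended on the GC and length correction, with which the log2 difference was -1.17 for Srebf2, -0.62 for Srebf1, -1.03 for Scap and -1.77 for Insig2. Insig1 was then called lower as well, at -0.64 (edgeR adjusted p = 0.0016).

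The enzymes were mixed, 10 of 18 higher and 4 lower in BV2. Mvd stood at 62.5, 64.2 and 83.5 CPM in BV2_PBS and 8.95, 11.2 and 9.98 CPM in PBS, 6.97-fold higher. Msmo1 was 5.82-fold higher and Fdps 4.70-fold higher (edgeR adjusted p = 4.2e-11, 7.5e-12 and 5.5e-10 for Mvd, Msmo1 and Fdps). Hmgcs1 was 2.40-fold lower in BV2 and Hsd17b7 3.94-fold lower (edgeR adjusted p = 1.0e-05 and 2.1e-10), with Mvk and Ebp also lower. Of the 4 efflux and storage genes, 3 were higher in BV2. Abca1 stood at 6.60, 7.46 and 7.17 CPM in BV2_PBS and 0.802, 0.649 and 0.407 CPM in PBS (10.6-fold higher in the fit, edgeR adjusted p = 1.2e-08), Abcg1 was 4.99-fold higher and Soat1 3.68-fold higher. Their upstream receptor gene Nr1h2 was 4.30-fold lower (edgeR adjusted p = 1.3e-10). Mylip, a ubiquitin ligase that marks lipoprotein receptors for degradation, was 1.65-fold higher and Stard4 1.36-fold lower. With the GC and length correction, Stard4 was no longer called (log2 -0.03, edgeR adjusted p = 0.84), while Acat2 was called lower (-1.02). The correction moved the log2 difference of Abca1 from 3.41 to 4.63, of Abcg1 from 2.32 to 3.46, of Soat1 from 1.88 to 2.86 and of Ebp from -0.67 to -1.64. Pmvk (1.81 to 1.08), Nsdhl (1.71 to 0.74) and Lss (0.95 to 1.97) also moved by over 1.5 times.

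A list of 41 other sterol genes, of which 36 were tested in 1C11NE and 34 in BV2, placed these results in the wider pathway. Under direct acrylamide 0 of 36 passed in 1C11NE, where 1.18% of all genes were called, so the count is no result about the list. In PBS-CM against PBS 0 rose, with 2.49% of all genes called higher and 2.06% lower, so the absence of a rise is no result either. Those that fell included the lipoprotein receptor gene Lrp8 (log2 -1.06 ± 0.28, edgeR adjusted p = 0.039) and the transporter gene Abca7 (log2 -1.05 ± 0.29, edgeR adjusted p = 0.046).

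In BV2 under acrylamide, 3 genes of the list rose and 2 fell. These 5 of 34 are near the 16.5% of all genes called there, so the count is no result about the list. Lipa, the lysosomal lipase that frees cholesterol from its esters, stood at 94.9, 99.4 and 79.7 CPM in BV2_PBS and 266, 293 and 283 CPM in BV2_ACR, with a wide gap between the groups (log2 1.62 ± 0.13, edgeR adjusted p = 1.4e-07). Stard3, a sterol carrier of late endosomes, had a log2 change of 0.68 ± 0.23 and Arl4c, a small GTPase gene known as a liver X receptor target, one of 0.79 ± 0.17. Coq2 of ubiquinone synthesis (-0.70 ± 0.24) and the ubiquitin ligase gene Rnf139 (-0.59 ± 0.18) fell (edgeR adjusted p = 0.050 and 0.027). Lipa was also the 1 gene of the list whose response differed between the lines, by 1.43 ± 0.27 on the log2 scale (edgeR adjusted p = 0.013).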

How the data were processed

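The authors deposited read counts by gene symbol for 21 libraries, in whole numbers and without normalization. The submitters' processing notes name Bowtie2 2.2.5. The sources used here do not give the genome build, the annotation, the counting program or the use of strand. Reads of near-identical or overlapping genes may therefore be split or shared. Groups were taken from the sample titles. No replicate pair had identical counts, and their chi-square statistic was 2.53 to 60.6 times its degrees of freedom.

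Everything else was computed here. edgeR 4.0.16 in R 4.3.3 was run with TMM scaling, filterByExpr and a robust quasi-likelihood fit of the 15 libraries of 1C11NE (12550 genes, biological coefficient of variation 0.211), the 6 of BV2 (10890 genes, 0.136) or all 21 (13569 genes, 0.197). P-values were adjusted over all genes of a fit by Benjamini-Hochberg, with a threshold of 0.05. CPM are mean ± SD of 3 libraries, and log2 changes are ± SE. Alternatives were DESeq2 1.42.0, limma-voom (limma 3.58.1), other scaling, no filter, the compared groups alone, a replicate block, each library left out, and a GC and length correction (4 spline degrees of freedom, GENCODE M21 transcripts, chosen after seeing the data). Sums of genes, medians and shares of promoters were not tested. The scripts were tested on simulated counts.

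The members, the 41 other sterol genes and the marker lists were chosen with earlier results of these data known. Members called in at least 1 comparison were named with values, and list genes were named where called and reportable. Some genes of the pathway are not reported here.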

Additional observations from a re-analysis of the deposited data

Results flagged for a closer look

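The response of Fdps to acrylamide was called different between the lines, a call lost in 9 of the 12 fits that left out 1 library and with a replicate block. The response in BV2 minus that in 1C11NE was -1.25 on the log2 scale in the joint fit (edgeR adjusted p = 0.028), with all 3 treated libraries above all 3 vehicle libraries in 1C11NE and all 3 below in BV2. The members were checked for single libraries far from the rest only in groups of 4 or more libraries, of which there were none.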

How the results depend on the processing

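No call of a member reversed its direction under any alternative, but the number of members called depended on the settings. For ACR against PBS (3 members), it was 6 with DESeq2, 5 with no low-count filter and 7 with the compared groups alone. It was 8 with the GC and length correction (360 of 12550 genes called). Without the 2 libraries that stood apart (PBS-CM+ACR replicate 3, PBS-CM replicate 1) it was 9, with 4.34% of all genes called. For PBS-CM against PBS (6), it was 2 with the compared groups alone and 11 without those 2 libraries (35.1% of all genes called). For PBS-CM+ACR against PBS-CM (2), it was 1 with limma-voom, 1 with upper-quartile scaling and 0 with the groups alone. For ACR-CM against PBS-CM (7), it was 2 with the groups alone and 11 without the 2 libraries (1.36% of all genes called). With the GC and length correction it was 12 (333 of 12550 genes called). For PBS-CM+ACR against ACR (4), it was 10 with DESeq2, 7 with limma-voom and 9 with no filter. It was 10 with the correction (883 of 12550 genes called) and 14 without the 2 libraries (24.6% of all genes called). For the difference between lines (1), it was 7 with DESeq2, 2 with no filter and 2 with the groups alone. It was 2 with the correction (291 of 13569 genes called) and 4 without the 2 libraries (4.94% of all genes called). In the order above, the main fits called 148, 571, 47, 116 and 497 of 12550 genes, and 77 of 13569 for the difference between lines. The number of all genes called thus also moved with the setting. It is not given here for the other settings, so those member counts are no result about the members alone. The cause of these shifts was not tested.

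Leaving out 1 library at a time gave 1 to 3 members for ACR against PBS, 2 to 11 for PBS-CM against PBS (11 without PBS-CM replicate 1), 0 to 3 for PBS-CM+ACR against PBS-CM, 3 to 6 for ACR-CM against PBS-CM, 3 to 10 for PBS-CM+ACR against ACR (10 without PBS-CM+ACR replicate 3), 1 to 4 in BV2, 23 to 24 between the vehicle groups and 0 to 1 for the difference between lines. It gave 0 to 0 for ACR-CM against PBS-CM+ACR and for the interaction of acrylamide and conditioned medium. The share of all genes called in these fits is not given here, so the ranges are no result about the members alone.

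Replicate numbers were not used as pairs in the main fits. Correlations between same-numbered libraries ran from -0.547 to 0.439 in 1C11NE and from 0.0286 to 0.117 in BV2. Those between differently numbered libraries ran from -0.520 to 0.639 and from -0.0817 to 0.0414. These values showed no clear pairing in 1C11NE and do not settle it in either line. With the replicate number as a block, 2 members were called for PBS-CM against PBS, 1 for PBS-CM+ACR against PBS-CM and 0 for the difference between lines; the other counts were within 1.5 times the main ones. Counting error was largest for the scarcest transcripts, such as Abca1, which had 4 to 10 reads in PBS-CM.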
